A study of Mus musculus with 25 samples.

Results

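Livers taken 24 hr after concanavalin A (ConA) with vehicle were compared with livers taken 3 hr after the same treatment. Members were chosen by sample title alone: 5 mice at 24 hr and 5 at 3 hr, each measured on 1 single-colour Agilent mouse array, 10 of the 25 arrays of the study, with all genes considered. Every one of these 10 was a female mouse of the strain written C57BL/6NcrSlc, received ConA at 10 mg/kg and, 15 min later, the vehicle of the test compound. No source used here gives the composition of the vehicle, the age of the mice or the hour of injection. The other arrays were 5 livers of untreated mice, which received neither ConA nor vehicle, and 5 at 3 hr and 5 at 24 hr from mice given ConA and then BW245C, an agonist of the prostaglandin D2 receptor DP1, at 1 mg/kg.

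ConA is a plant lectin that crosslinks sugars on cell surfaces. Injected into mice it activates T cells and natural killer T cells in the liver sinusoids, which release interferon-gamma, TNF and interleukins, and hepatocytes die within hours under these signals and under attack by the lymphocytes. Hepatocytes answer such cytokines with the acute phase response, endothelium displays adhesion molecules, neutrophils and monocytes arrive, and surviving hepatocytes can re-enter the cell cycle. The comparison asked how the expression of each gene moved between the early and the late time.

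Markers of liver were present: albumin (Alb), transthyretin (Ttr), Apoa1, Serpina1a and Cps1 of hepatocytes, Stab2 and Clec4g of sinusoidal endothelium, and Clec4f, Vsig4 and Timd4 of Kupffer cells, the resident macrophages, were well above background on all 10 arrays. In bulk liver, fewer cells of a type and less RNA per cell cannot be told apart. Spots well above background made up 54.1 ± 1.54% of an array at 3 hr (SD, n = 5) and 58.8 ± 2.24% at 24 hr (SD, n = 5; exact two-sided permutation test, p = 0.0159). The spread between arrays of a group was larger at 3 hr. The median SD of a gene on the log2 scale was 0.256 at 3 hr, 0.165 at 24 hr and 0.134 in untreated mice. The SD was larger at 24 hr in 24.9% of genes. The 3 hr arrays lay on slides 1, 2 and 3 (1, 2 and 2 arrays) and the 24 hr arrays on slides 3 and 4 (1 and 4). Untreated arrays lay on slides 1 and 2 (4 and 1). In these SDs the spread between mice and that between slides cannot be told apart. The permutation test on spots well above background treated the arrays as exchangeable, so its p does not separate time from slide. Before scaling, the log2 75th percentile of an array lay between 7.80 and 8.31 at 3 hr and between 8.41 and 8.87 at 24 hr. The part of this brightness in the share of spots was not tested. No slide held both untreated and 24 hr arrays, so comparisons of those groups below also carry any difference between slides. Slide 3 alone held both times, with 2 arrays at 3 hr and 1 at 24 hr, and within it 10209 of 10337 called genes (98.8%) moved the same way as over all arrays. Those 3 arrays are also in the fit that made the calls, so this share is no independent check, and with slide as a fixed term 8587 of 10338 calls were kept in the same direction. Replicate 1 at 3 hr lay far above the other 3 hr mice in 13 of the 260 genes named below, among them Tnf, Gzmb, Mki67 and Rsad2. Such gaps were counted in 27 of 520 groups (each gene at each time), and 13 of the 16 at 3 hr fell in this mouse. Without replicate 1 at 3 hr 10195 genes were called. Hour of day and time since injection cannot be told apart.

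Levels below are log2 signal relative to the 75th percentile of the same array, listed for replicates 1 to 5 of a group. A change is 24 hr minus 3 hr on that scale, ± its standard error from the limma fit, and it was called when the Benjamini-Hochberg adjusted p over 15104 genes was under 0.05. In all, 10338 of 15104 genes (68.4%) were called, 5011 higher at 24 hr (33.2%) and 5327 lower (35.3%), so a list with such shares does not stand apart from the rest of the transcriptome. Among these, 2389 genes were higher by at least 2-fold (15.8%) and 2026 lower (13.4%), 768 were higher and 557 lower by at least 4-fold, and 51 and 39 by at least 16-fold. The 24 hr arrays lay wholly above or below the 3 hr arrays in 7905 genes (52.3%), and the median change of all genes was -0.03. The authors' deposited series matrix put that median at 0.42, and of 11268 calls with them 74.1% were higher, against 48.5% here. Lists named below held 1190 genes in all, of which 1144 could be tested.

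**Figure D1:**
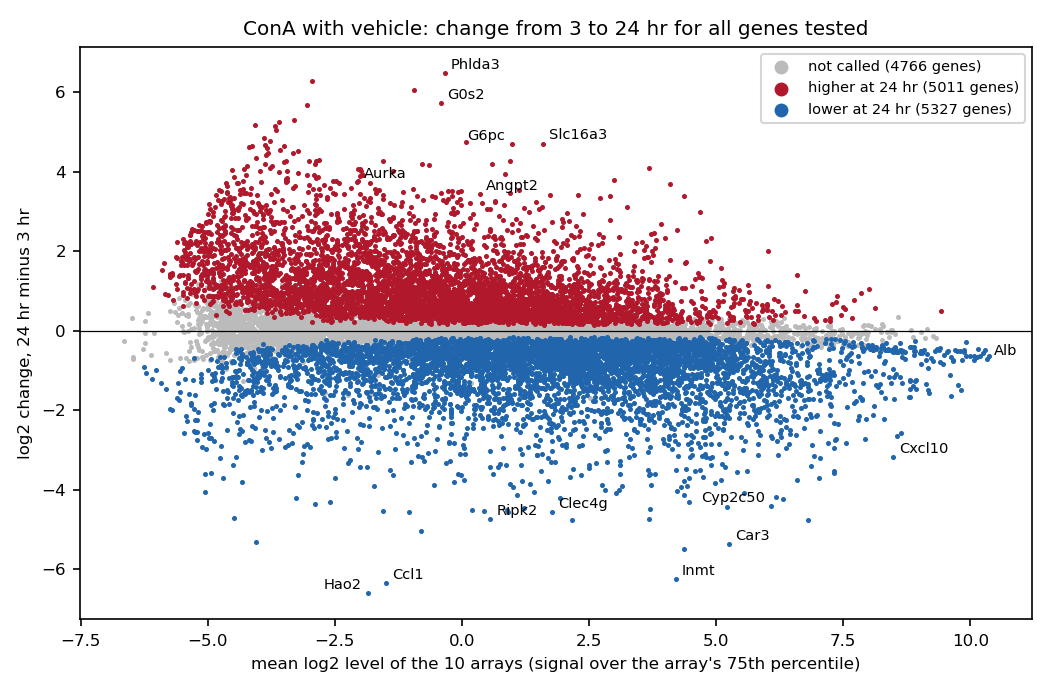
Change from 3 to 24 hr (log2, vertical axis) against the mean log2 level of the 10 arrays (horizontal axis) for the 15104 genes tested, with called genes in red (5011, higher at 24 hr) and blue (5327, lower). Phlda3 and G0s2 lie at the upper edge and Hao2 and Inmt at the lower edge, while Alb, the brightest of the genes marked, lies just below 0.

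The genes named for the largest increases are known for different functions. The largest increases and decreases were picked among called genes whose 24 hr and 3 hr arrays do not overlap. Their separation was thus fixed by the choice, and 52.3% of all genes had none overlapping. Phlda3, a p53 target that restrains Akt signalling, stood at -3.35, -3.46, -3.79, -3.56 and -3.73 in the 3 hr mice and at 2.71, 2.82, 3.05, 3.19 and 2.74 in the 24 hr mice. The rise came to 89.5-fold (log2 6.48 ± 0.20, adjusted p = 1.64e-16). G0s2, an inhibitor of the triglyceride lipase ATGL, went from -2.96, -3.47, -3.11, -3.79 and -3.02 to 2.21, 2.52, 2.62, 2.21 and 2.74, a rise of 53.2-fold (log2 5.73 ± 0.28, adjusted p = 8.98e-14). Its 3 hr values lay far below those of untreated mice (mean 2.95), and its 24 hr mean was 2.46. Ccnf, which encodes cyclin F, read -2.91, -4.30, -4.21, -4.42 and -3.99 at 3 hr, where 3 of 5 arrays were above background, and 2.26, 1.74, 2.24, 1.84 and 2.40 at 24 hr, and rose 66.7-fold (log2 6.06 ± 0.35, adjusted p = 7.88e-13). With normexp background correction, which draws dim signals together, the changes of Phlda3, G0s2 and Ccnf came to 4.58, 4.27 and 4.12 on the log2 scale, and 68 of the genes named here kept their call with a change smaller by over 1.5 times.

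Several of the largest increases started from signals not well above background at 3 hr. For these a bound is given as "at least", which holds on the scale used here only. It is the mean of the brighter group over the mean of the dimmer group. Each dim array was first set to the higher of its own value and the dimmest signal that still counted as well above background there. With normexp background the fold fell below its bound for every gene given one in this report except Cd163. It fell to 4.84 for Gml, 4.42 for Ido1, 2.86 for Mmp3 and 2.55 for Sox18. For genes given later it was 3.06 for Mmp9, 2.31 for Fgf21, 2.13 for Ccr2, 1.52 for Bub1b, 1.33 for Cdc6 and 1.22 for Lox. Gml, a glycosylphosphatidylinositol-anchored protein of the Ly6 family, rose at least 24.4-fold (adjusted p = 7.54e-12), Ido1, which breaks down tryptophan and is a classical target of interferon-gamma, rose at least 18.6-fold (adjusted p = 8.78e-10), and the matrix protease Mmp3 rose at least 13.5-fold (adjusted p = 2.24e-12). All 5 arrays at 24 hr exceeded all 5 at 3 hr for each, as the choice of genes required. Gpnmb, a glycoprotein of lipid-laden macrophages, rose at least 10.9-fold (adjusted p = 3.94e-11), the endothelial regulator Sox18 at least 7.7-fold (adjusted p = 2.39e-14), Gtse1, expressed in G2 and S phase, at least 9.9-fold (adjusted p = 2.9e-10), and Apln, the peptide ligand apelin made by sprouting endothelium, at least 9.76-fold (adjusted p = 4.17e-10). Ifit1bl1, of the interferon-induced IFIT family, rose at least 7.67-fold (adjusted p = 5.92e-11) and the secreted CCN family protein Ccn5 at least 8.1-fold (adjusted p = 3.33e-10). Measured at both times, Esm1 of endothelial tip cells rose 26.8-fold (log2 4.74 ± 0.41, adjusted p = 4.78e-10), the lactate exporter Slc16a3 26.1-fold (log2 4.71 ± 0.28, adjusted p = 1.39e-12) and G6pc, the glucose 6-phosphatase that releases glucose, 25.9-fold (log2 4.69 ± 0.48, adjusted p = 9.49e-09). Among these 3, G6pc had the lowest 3 hr values relative to untreated mice, -1.69, -1.73, -0.95, -1.55 and -0.93 at 3 hr against an untreated mean of 7.03, and its 24 hr values of 3.60, 3.01, 2.69, 3.13 and 4.2 still lay below.

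Enzymes and transporters of hepatocytes were among the largest decreases. Hao2, a peroxisomal hydroxyacid oxidase, fell from 1.90, 0.53, 1.01, 1.77 and 2.04 to -5.28, -6.44, -6.16, -2.28 and -5.56, where 1 of 5 arrays was above background (96.6-fold (adjusted p = 4.1e-10) lower). As most of its 24 hr arrays were near background, the size of that fold is uncertain, and with normexp background the change was -3.73 on the log2 scale. Without 24 hr replicate 4, the array above background, its change was -7.31. Inmt, an indolethylamine methyltransferase, read 7.35, 7.28, 7.62, 6.87 and 7.51 at 3 hr and 0.41, 1.16, 1.53, 1.16 and 1.17 at 24 hr and fell 75.4-fold (log2 -6.24 ± 0.31, adjusted p = 8.71e-14). By the choice of genes, the 24 hr and 3 hr arrays of neither gene overlapped. Serpina6, the corticosteroid carrier of plasma, was 45-fold (adjusted p = 1.11e-13) lower, the carbonic anhydrase Car3 40.9-fold (adjusted p = 2.71e-11), the carboxylesterase Ces1f 26.6-fold (adjusted p = 1.92e-11), the sulfotransferase Sult2a7 23.4-fold (adjusted p = 3.44e-07), and the organic anion transporter Slco1a4 23.1-fold (adjusted p = 3.59e-14). With slide in the fit the change of Sult2a7 was -3.63 on the log2 scale, and the other genes of this paragraph moved by less than 1.5 times. Clec4g, a lectin of sinusoidal endothelium, fell from 4.56, 3.38, 4.29, 4.07 and 3.96 to -0.50, -0.16, -0.24, -0.66 and -0.95 (23.5-fold (log2 -4.55 ± 0.25, adjusted p = 3.87e-13) lower). Cux2, a female-biased transcription factor of hepatocytes that was not above background at 24 hr, was at least 10.6-fold (adjusted p = 1.52e-08) lower.

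Another group of the largest decreases had been raised at 3 hr. Ccl1, a T cell chemokine, read 2.17, 1.86, 1.71, 1.49 and 1.15 at 3 hr and -4.61, -4.46, -6.15, -2.21 and -5.94 at 24 hr, with 3 of 5 arrays above background at 24 hr, and fell 81.5-fold (log2 -6.35 ± 0.50, adjusted p = 9.76e-11). Without 24 hr replicate 4 the change was -6.96. Ccl17, which attracts Ccr4-bearing T cells, was 23.5-fold (adjusted p = 1.92e-11) lower, Socs2, a growth hormone and cytokine feedback gene, 26.9-fold (adjusted p = 7.23e-09), the small GTPase gene Rnd1 26.8-fold (adjusted p = 5.09e-14), Ripk2, the kinase downstream of NOD receptors, 26.5-fold (adjusted p = 4.12e-14), and the ubiquitin ligase gene Rnf122 at least 6.4-fold (adjusted p = 7.99e-12). Means at 3 hr exceeded the untreated means by 8.38 for Ccl1, 6.28 for Ripk2 and 6.19 for Rnd1 on the log2 scale, and means at 24 hr still exceeded the untreated means by 2.03, 1.55 and 1.45.

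Transcripts that cells make within minutes of a signal had subsided at 24 hr in most cases. Of 24 measured immediate early genes, which encode transcription factors and feedback proteins, 18 were lower and 3 higher at 24 hr, with a median change of -1.70 against -0.03 over all genes. Fos, a subunit of AP-1, read 2.09, 2.02, 2.36, 2.62 and 3.45 at 3 hr and 0.73, 0.47, -0.10, 0.38 and -0.07 at 24 hr and fell 4.68-fold (log2 -2.23 ± 0.48, adjusted p = 0.000265). Zfp36, which destabilises cytokine mRNA, was 9.21-fold (adjusted p = 3.84e-10) lower, Egr1 7.25-fold (adjusted p = 3.93e-07) and Egr2 5.34-fold (adjusted p = 6.08e-07). Higher at 24 hr were Fosl1, an AP-1 subunit of late onset (6.68-fold (adjusted p = 1.7e-08)), Klf4 (3.7-fold (adjusted p = 1.07e-07)) and Ier5 (1.42-fold (adjusted p = 0.000948)). Over the list the median lay 3.48 above untreated mice at 3 hr and 2.59 at 24 hr, so it had not returned to the level of the untreated arrays.

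NF-kappaB, the transcription factor downstream of TNF and interleukin 1 receptors, drives its own inhibitors. Of 19 such targets 18 were lower at 24 hr and 1 higher (median -1.87). Tnfaip3, the deubiquitinase A20 that ends the signal, stood at 6.26, 6.11, 6.29, 6.69 and 6.75 at 3 hr and 2.63, 2.33, 2.15, 2.69 and 1.72 at 24 hr. No arrays overlapped, and the fall was 17.4-fold (log2 -4.12 ± 0.19, adjusted p = 3.94e-14). Birc3, an inhibitor of TNF-induced death, was 8.71-fold (adjusted p = 3.79e-14) lower, and the adhesion molecule Icam1 8.18-fold (adjusted p = 1.43e-11). Traf1, an adaptor of TNF receptors, was the exception and rose 2.21-fold (adjusted p = 2.28e-06). Nfkbia, the inhibitor that holds NF-kappaB in the cytoplasm, was chosen after its values were seen and fell 3.48-fold (log2 -1.80 ± 0.12, adjusted p = 6.25e-12).

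Cytokine genes split. Of 24 measured, 12 were lower and 5 higher at 24 hr (median -0.56). Ifng, the interferon of T and natural killer cells, read 2.54, 1.97, 1.77, 1.61 and 1.51 at 3 hr and -0.33, 0.24, -0.41, -0.22 and -0.84 at 24 hr and fell 4.58-fold (log2 -2.20 ± 0.25, adjusted p = 3.85e-08). Its 24 hr mean of -0.31 lay far above the untreated mean of -4.78. Tnf fell 3.03-fold (log2 -1.60 ± 0.37, adjusted p = 0.000599), from 1.32, 0.28, 0.49, 0.37 and 0.39 to -1.01, -0.49, -0.90, -0.75 and -2.00. Il2, the T cell growth factor, was 7.62-fold (adjusted p = 1.83e-08) lower, with 3 of 5 arrays above background at 24 hr, Il1a was 6.51-fold (adjusted p = 1.02e-05) lower and Il1b 2.09-fold (adjusted p = 0.00573). The 3 hr and 24 hr arrays of Il1b overlapped, those of Ifng and Tnf did not. With the authors' deposited matrix the call of Il1b was lost (-0.61, adjusted p = 0.113). Il6 read 1.07, -0.67, 0.46, 0.89 and 0.49 at 3 hr and 0.03, -0.20, -0.53, 0.19 and 0.07 at 24 hr, a change of -0.53 ± 0.34 that did not pass (adjusted p = 0.172). Higher were Il21, of follicular helper T cells (3.47-fold (adjusted p = 0.000143)), the alarmin Il33 (2.71-fold (adjusted p = 1.46e-05)) and Il10, which restrains inflammation (2.2-fold (adjusted p = 0.000247)). Both Il21 and Il10 were above background on 1 of 5 arrays at 3 hr and on all 5 at 24 hr, and with normexp background neither was called (log2 0.08, adjusted p = 0.491 for Il21 and -0.09, adjusted p = 0.273 for Il10).

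Chemokines, the secreted attractants of leukocytes, moved mostly down from the 3 hr peak: 15 of 25 were lower, 4 higher, and the median was -1.43. Cxcl10, which attracts activated T cells through Cxcr3, read 10.09, 10.18, 10.16, 9.98 and 9.94 at 3 hr and 6.84, 6.79, 6.77, 7.49 and 6.55 at 24 hr (9.07-fold (log2 -3.18 ± 0.28, adjusted p = 5.64e-10) lower). Cxcl9, another Cxcr3 ligand, fell 2.25-fold (log2 -1.17 ± 0.20, adjusted p = 1.73e-05), and Cxcl1, which attracts neutrophils, 5.58-fold (log2 -2.48 ± 0.24, adjusted p = 3.11e-09). The eosinophil attractant Ccl11 was 10.8-fold (adjusted p = 6.56e-11) lower. Each of these still had a 24 hr mean well above the untreated mean, by 5.70 for Cxcl10, 6.33 for Cxcl9, 6.03 for Cxcl1 and 5.73 for Ccl11 on the log2 scale. Higher at 24 hr were Cxcl14 (3.88-fold (adjusted p = 4.84e-08)), Ccl5, made by T and natural killer cells (3.1-fold (adjusted p = 7.33e-07)), and Ccl6 (1.68-fold (adjusted p = 0.0248)). The call of Ccl6 was lost with slide in the fit (0.84, adjusted p = 0.104) and without 24 hr replicate 5 or 3 hr replicate 2, 4 or 5, when the adjusted p was 0.0684, 0.056, 0.0516 and 0.0632.

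Promoters of NF-kappaB targets and chemokines are shown because most members of these lists fell. Sequences are from RefSeq (GRCm38.p6), matched by gene ID for 12017 of 15104 genes, each given 5′ to 3′ on the gene's strand up to the base before the start site. In 1.41% of all matched promoters the 250 bases upstream held an NF-kappaB motif (GGG, any 2 bases, TTTCC, on either strand), against 3 of 14 promoters of NF-kappaB targets (21.4%) and 4 of 17 of chemokines (23.5%). These lists include members that rose, such as Traf1 and Cxcl14. Over all genes the motif was in 1.26% of promoters called higher and 1.62% called lower. Capitals mark the motif. A match is a description of letters, not a tested binding site, and the genes shown were chosen after their values were seen.
Nfkbia (chr12:55492648-55492727, minus strand): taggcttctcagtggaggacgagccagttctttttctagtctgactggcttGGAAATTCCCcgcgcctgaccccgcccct
Cxcl1 (chr5:90891146-90891244, plus strand): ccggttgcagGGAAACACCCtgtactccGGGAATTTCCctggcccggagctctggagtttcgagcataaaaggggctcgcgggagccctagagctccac
Cxcl2 (chr5:90903800-90903898, plus strand): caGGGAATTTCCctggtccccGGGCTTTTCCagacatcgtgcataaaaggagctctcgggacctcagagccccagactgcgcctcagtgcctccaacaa

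Interferon-gamma induces the transcription factor Irf1 and a set of large GTPases that attack intracellular microbes. Of 22 such GTPases and factors, 19 were lower and 2 higher at 24 hr (median -1.17), the latter being Ido1 and Gbp8 (1.77-fold (adjusted p = 0.0191)). The rise of Gbp8 was not called with slide in the fit (adjusted p = 0.0692) or without 24 hr replicate 2 (adjusted p = 0.0736). Irf1 read 8.62, 8.66, 8.74, 8.80 and 9.07 at 3 hr and 5.74, 6.19, 5.75, 6.08 and 5.47 at 24 hr and fell 7.64-fold (log2 -2.93 ± 0.15, adjusted p = 1.07e-13). Irf8 was 7.2-fold (adjusted p = 2.83e-10) lower, and the GTPase Ifi47 7.03-fold (adjusted p = 1.35e-12). The list median lay 4.95 above untreated mice at 3 hr and 3.56 at 24 hr on the log2 scale.

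The type I interferon antiviral genes moved the other way: 15 of 22 were higher and 2 lower at 24 hr (median 0.62). Rsad2, which encodes viperin, read 4.10, 2.69, 2.61, 2.52 and 2.29 at 3 hr and 5.07, 4.58, 4.99, 6.14 and 5.03 at 24 hr and rose 5.0-fold (log2 2.32 ± 0.36, adjusted p = 4.68e-06). Every 24 hr mouse exceeded every 3 hr mouse. Ifi44 rose 5.15-fold (adjusted p = 2.38e-09) and Oas3, a sensor of double-stranded RNA, 4.99-fold (adjusted p = 1.67e-06). Eif2ak2, the kinase PKR (2.04-fold (adjusted p = 2e-05) lower), and Rtp4 (1.89-fold (adjusted p = 1.25e-06) lower) were the exceptions. The median of the list stood 2.03 above untreated mice at 3 hr and 3.05 at 24 hr.

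Both interferon lists carry related promoter motifs. The core of the interferon-stimulated response element (ISRE; TTTC, any 2 bases, TTTC) was present on either strand in 10 of 13 matched promoters of the interferon-gamma list (76.9%) and 8 of 19 of the type I list (42.1%), against 2.92% of all promoters. The gamma-activated site (GAS; TTC, any 3 bases, GAA) was present in 8 of 13 of the interferon-gamma list (61.5%) and 5 of 19 of the type I list (26.3%), against 6.42%. Windows from both lists are shown to set these letters side by side, with motifs in capitals, and were picked after the values were seen. Besides Irf1, the GTPase genes Irgm1, at -1.73 ± 0.11 (adjusted p = 3.73e-12), and Gbp5, at -2.29 ± 0.26 (adjusted p = 3.66e-08), fell. In the type I list Isg15, a ubiquitin-like modifier, changed by 0.78 ± 0.21 (adjusted p = 0.00199) and Oas1a by 2.26 ± 0.18 (adjusted p = 1.84e-10).
Irf1 (chr11:53769915-53770013, plus strand): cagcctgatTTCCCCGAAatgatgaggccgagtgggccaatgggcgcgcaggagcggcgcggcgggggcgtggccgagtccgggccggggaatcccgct
Irgm1 (chr11:48871421-48871480, minus strand): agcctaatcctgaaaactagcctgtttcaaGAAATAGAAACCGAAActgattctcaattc
Gbp5 (chr3:142496835-142496933, plus strand): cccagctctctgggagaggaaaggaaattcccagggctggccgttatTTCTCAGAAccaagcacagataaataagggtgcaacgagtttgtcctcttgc
Isg15 (chr4:156200819-156200908, minus strand): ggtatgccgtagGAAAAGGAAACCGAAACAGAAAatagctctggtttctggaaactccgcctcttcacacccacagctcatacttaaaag
Oas1a (chr5:120907526-120907585, minus strand): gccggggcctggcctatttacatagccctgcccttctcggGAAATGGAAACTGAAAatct

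Cytokine receptors signal through JAK kinases and STAT factors and induce the SOCS inhibitors. Of 19 genes of this loop 15 were lower and 2 higher at 24 hr (median -1.07). Socs1, which blocks interferon-gamma signalling, fell 6.92-fold (log2 -2.79 ± 0.22, adjusted p = 1.15e-10) and Cish, an interleukin 2 and growth hormone target, 11.3-fold (adjusted p = 8.73e-10). Stat4, of interleukin 12 signalling in T cells, rose 3.36-fold (adjusted p = 4.27e-08) and Jak3 1.4-fold (adjusted p = 0.00212).

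Antigen presentation genes moved little. In MHC class II presentation 4 of 11 rose and 0 fell (median 0.23), among them H2-DMa, which loads peptides (2.22-fold (adjusted p = 0.000789)), and Ctss, a cathepsin (1.9-fold (adjusted p = 0.000547)). Cd74, the invariant chain, read 3.99, 2.94, 3.44, 3.32 and 3.02 at 3 hr and 3.67, 4.27, 3.81, 3.85 and 2.84 at 24 hr, and its change of 0.34 ± 0.27 did not pass (adjusted p = 0.258). In the immunoproteasome and MHC class I list 5 rose and 5 fell of 17 (29.4% each, against 33.2% and 35.3% of all genes), with a median of 0.03. Psmb8, an inducible proteasome subunit, rose 2.01-fold (adjusted p = 4.75e-06), and the peptide transporter gene Tap2 1.77-fold (adjusted p = 2.89e-07), while its partner Tap1 was 1.52-fold (adjusted p = 0.00175) lower. Nlrc5, the transactivator of class I genes, was 1.65-fold (adjusted p = 0.000257) lower. The calls of Tap1 and Nlrc5 were lost with the authors' deposited matrix (adjusted p = 0.393 and 0.13), and that of Tap1 also after quantile normalization (0.103) and with slide in the fit (0.0768).

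**Figure D2:**
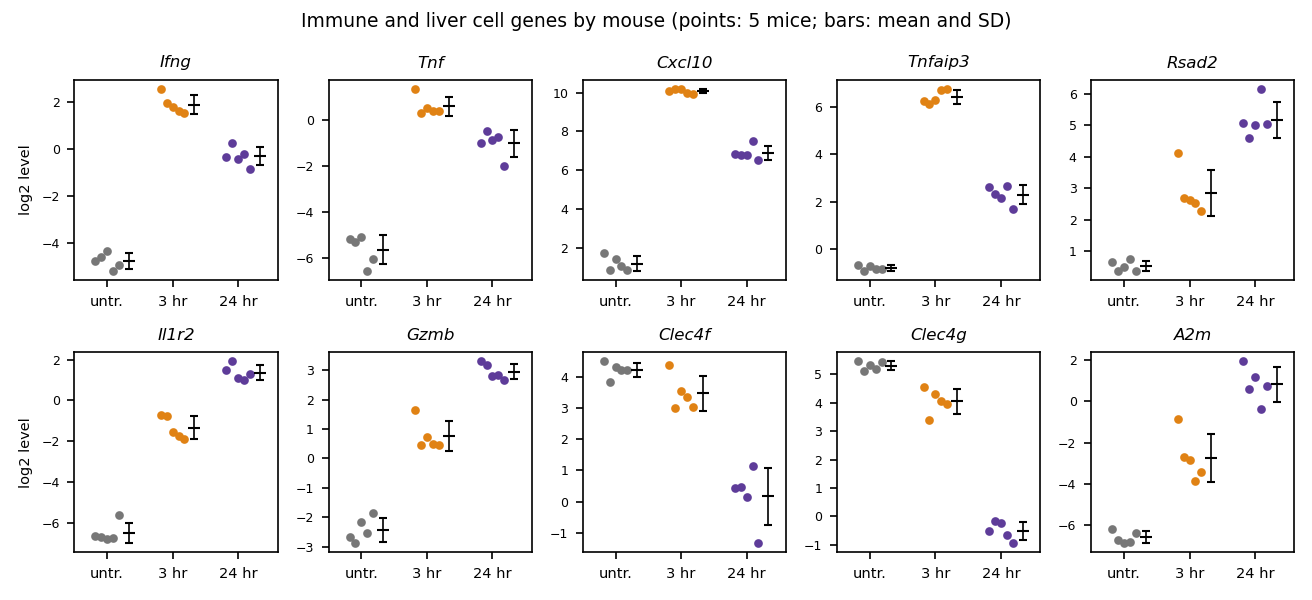
Log2 level (signal over the array's 75th percentile) of 10 genes in each of 5 untreated, 5 ConA with vehicle 3 hr and 5 ConA with vehicle 24 hr mice, with mean and SD beside the points. Ifng, Tnf, Cxcl10 and Tnfaip3 are highest at 3 hr, Rsad2, Il1r2, Gzmb and A2m at 24 hr, and Clec4f and Clec4g are lowest at 24 hr.

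Acute phase proteins, which hepatocytes secrete under interleukin 6 and interleukin 1, went both ways. Of 27 measured, 16 were lower and 7 higher at 24 hr, and the median of -0.45 turned to 0.32 after quantile normalization and 0.00 with the authors' deposited matrix. A2m, a broad protease inhibitor, read -0.86, -2.67, -2.86, -3.85 and -3.44 at 3 hr and 1.94, 0.61, 1.20, -0.38 and 0.74 at 24 hr and rose 11.8-fold (log2 3.56 ± 0.45, adjusted p = 2.15e-07). The orosomucoid genes Orm3 (5.07-fold (adjusted p = 1.44e-13)) and Orm2 (2.08-fold (adjusted p = 8.36e-06)) rose as well. Steap4, a metalloreductase, was 7.99-fold (adjusted p = 3.07e-13) lower, Crp 4.08-fold (adjusted p = 8.7e-11) and Lbp, the carrier of lipopolysaccharide, 3.78-fold (adjusted p = 2.66e-10). Saa1, the serum amyloid, fell 1.37-fold (log2 -0.45 ± 0.16, adjusted p = 0.0166), and its 24 hr mean lay 4.92 above the untreated mean. That small fall turned to a rise of 0.27 after quantile normalization, was 0.00 with the authors' deposited matrix, and was not called with slide in the fit (adjusted p = 0.102) or without 3 hr replicate 2 (0.0528).

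Neutrophil markers rose further between the times, 12 of 19 higher and 1 lower, with a median of 1.08. In single mice the list median relative to the 3 hr mean ranged from -0.27 to 0.62 at 3 hr and from 0.80 to 1.47 at 24 hr. Il1r2, a decoy receptor for interleukin 1, read -0.72, -0.76, -1.57, -1.72 and -1.91 at 3 hr and 1.5, 1.92, 1.11, 0.98 and 1.32 at 24 hr and rose 6.5-fold (log2 2.70 ± 0.44, adjusted p = 8.89e-06). Mmp9, a gelatinase of neutrophil granules that was below background at 3 hr, rose at least 12.3-fold (adjusted p = 1.1e-08), and Chil3, a chitinase-like protein of neutrophils and macrophages, 6.78-fold (adjusted p = 1.47e-07). S100a8, a calcium-binding protein abundant in neutrophils, rose 2.46-fold (log2 1.30 ± 0.36, adjusted p = 0.00254), although its arrays overlapped: 4.80, 4.18, 3.54, 3.49 and 3.70 at 3 hr and 5.34, 5.62, 5.32, 5.18 and 4.75 at 24 hr. With slide in the fit S100a8 was not called (adjusted p = 0.0599). Csf3r, the receptor for G-CSF, was 1.18-fold (adjusted p = 0.017) lower, a change that turned to 0.24 after quantile normalization and 0.21 with the authors' deposited matrix. Without 3 hr replicate 1 or 3 Csf3r was not called (adjusted p = 0.0623 and 0.0555).

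T and natural killer cell markers were higher at 24 hr, 20 of 24 called higher and 1 lower (median 1.25). The list median in single mice ranged from -0.13 to 0.10 at 3 hr and from 0.90 to 1.64 at 24 hr. Gzmb, a protease that kills target cells, read 1.64, 0.47, 0.74, 0.50 and 0.47 at 3 hr and 3.30, 3.17, 2.80, 2.83 and 2.68 at 24 hr and rose 4.58-fold (log2 2.20 ± 0.29, adjusted p = 5.36e-07). Cd3d of the T cell receptor complex rose 5.2-fold (adjusted p = 1.29e-09), and the natural killer receptor Klrd1, above background on 2 of 5 arrays at 3 hr, 8.3-fold (adjusted p = 2.91e-10), or 1.01 on the log2 scale with normexp background. Zap70, the kinase of the same receptor complex, was 2.15-fold (adjusted p = 1.83e-07) lower. Of 12 B cell markers 6 rose and 3 fell. Ly6d rose 19.2-fold (adjusted p = 1.75e-10), Cd37 2.98-fold (adjusted p = 4.11e-08) and Ms4a1 2.77-fold (adjusted p = 0.00164), while the complement receptor Cr2 was 3.58-fold (adjusted p = 2.01e-10) lower, Fcer2a 1.99-fold (adjusted p = 2.51e-06) and Cd22 1.47-fold (adjusted p = 7.41e-05). The mean of its probes put Cr2 at -0.89, and Cd22 was not called with the authors' deposited matrix (adjusted p = 0.482).

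Kupffer cell markers were lower, 9 of 15 called lower and 1 higher (median -1.33). Clec4f, a lectin found on Kupffer cells alone among liver cells, read 4.37, 3.01, 3.57, 3.37 and 3.05 at 3 hr and 0.43, 0.48, 0.16, 1.13 and -1.34 at 24 hr, against an untreated mean of 4.22. The groups did not overlap and the fall was 9.87-fold (log2 -3.30 ± 0.36, adjusted p = 2.47e-08). Vsig4, a complement receptor of resident macrophages, was 10.4-fold (adjusted p = 1.69e-08) lower, with 4 of 5 arrays used at 24 hr because the spot was an outlier on 1. Timd4, which binds dying cells, was 5.01-fold (adjusted p = 1.67e-07) lower. The member that rose, Cdh5, is VE-cadherin and also marks endothelium (2.09-fold (adjusted p = 4.81e-05)). Of 20 markers of monocytes and other macrophages 8 were higher and 6 lower (40% and 30%, median 0.36), not far from the shares of all genes (33.2% and 35.3%). Ccr2, the receptor by which monocytes leave the marrow, was below background at 3 hr and rose at least 7.42-fold (adjusted p = 9.53e-11), whereas the mannose receptor Mrc1, also of sinusoidal endothelium, was 7.68-fold (adjusted p = 1.11e-10) lower, Cd163 at least 1.63-fold (adjusted p = 0.000425) and Adgre1, the F4/80 antigen, 2.88-fold (adjusted p = 1.76e-05). Cd163 had been above background on 2 of 5 arrays at 3 hr and was on none at 24 hr.

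Dendritic cell markers numbered 9, of which 3 rose and 4 fell (33.3% and 44.4%, against 33.2% and 35.3% of all genes). Ccr7, which guides dendritic cells and T cells to lymph nodes, rose 4.25-fold (adjusted p = 2.39e-09), and Itgax 3.04-fold (adjusted p = 2.54e-05). Cd209a was at least 2.92-fold (adjusted p = 1.96e-12) lower and the transcription factor gene Batf3 4.96-fold (adjusted p = 1.15e-09).

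Sinusoidal endothelial markers went both ways, 10 higher and 9 lower of 24 (41.7% and 37.5%), shares near those of all genes. Their median of -0.18 was 0.01 with slide in the fit and 0.27 with the authors' deposited matrix. Stab2, a scavenger receptor that clears hyaluronan, read 4.10, 3.17, 3.88, 3.34 and 3.03 at 3 hr and 3.73, 3.55, 3.55, 2.91 and 3.20 at 24 hr, and its change of -0.12 ± 0.20 did not pass (adjusted p = 0.617). Clec4g has been given above. Oit3 was 5.02-fold (adjusted p = 2.22e-08) lower and the phosphatase gene Ptprb 4.1-fold (adjusted p = 2.66e-11), while Lyve1 rose 2.93-fold (adjusted p = 5.76e-05) and Gpr182 2.69-fold (adjusted p = 2.11e-07).

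Of 20 genes of endothelial activation and adhesion 8 were higher and 9 lower, a split not far from that of all genes. The median was -0.24, and 0.21 with the authors' deposited matrix. Sele, which encodes E-selectin for the rolling of leukocytes, read 0.85, 0.07, 0.56, 1.15 and 0.96 at 3 hr and -3.26, -3.67, -3.96, -3.69 and -4.44 at 24 hr and fell 23-fold (log2 -4.53 ± 0.36, adjusted p = 1.48e-10). Tissue factor (F3) was 12.4-fold (adjusted p = 1.55e-09) lower and Vcam1 8.68-fold (adjusted p = 3.53e-12), whose probes averaged -2.07. Angpt2, an angiopoietin that loosens vessels, rose 10.8-fold (log2 3.43 ± 0.41, adjusted p = 1.22e-07) and the protein C receptor gene Procr 7.86-fold (adjusted p = 1.14e-08).

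Stellate cells store vitamin A and make matrix after injury. Of 30 genes of these cells and of matrix, 16 rose and 6 fell (median 0.53). Timp1, an inhibitor of matrix proteases, read 2.15, 1.05, 0.85, 1.02 and 0.43 at 3 hr and 3.44, 3.79, 3.29, 3.49 and 3.43 at 24 hr and rose 5.23-fold (log2 2.39 ± 0.29, adjusted p = 1.39e-07). Pdgfrb, the growth factor receptor of these cells, rose 9.88-fold (adjusted p = 3.47e-12), from 3 hr values below those of untreated mice, and Lox, which crosslinks collagen, at least 2.79-fold (adjusted p = 7.48e-09). Col1a1 of collagen I rose 1.67-fold (log2 0.74 ± 0.24, adjusted p = 0.0091), with overlapping arrays. Reln, secreted by quiescent stellate cells, was 7.1-fold (adjusted p = 4.51e-12) lower, above background on 2 of 5 arrays at 24 hr and at -1.24 on the log2 scale with normexp background, the collagenase gene Mmp13 4.0-fold (adjusted p = 0.0017) and Timp2 2.32-fold (adjusted p = 8.27e-09), whose probes averaged -0.40. Neither Col1a1 (adjusted p = 0.0995) nor Mmp13 (adjusted p = 0.0539) was called with slide in the fit.

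Among cholangiocyte and progenitor markers 8 of 14 rose and 1 fell. Afp, the fetal albumin homologue alpha-fetoprotein, rose 8.69-fold (log2 3.12 ± 0.29, adjusted p = 2.12e-09) and the transcription factor gene Sox4 7.38-fold (adjusted p = 1.97e-13), while the duct keratin Krt19 rose 1.88-fold (adjusted p = 0.0035) and Cldn7 was 1.63-fold (adjusted p = 9.87e-09) lower. All 9 measured erythroid and platelet genes were lower at 24 hr (median -2.16), after lying 2.73 above untreated mice at 3 hr. Hba-a1, an alpha globin with a near-identical copy from which the probe may take signal, read 9.03, 8.36, 8.76, 8.66 and 8.80 at 3 hr and 6.41, 5.78, 5.27, 6.64 and 5.91 at 24 hr and fell 6.59-fold (log2 -2.72 ± 0.39, adjusted p = 1.65e-06). Alas2, of red cell haem synthesis, was 6.78-fold (adjusted p = 2.74e-11) lower and the platelet chemokine gene Ppbp 5.45-fold (adjusted p = 2.24e-09). Blood held in the livers was not measured, and its part in these values was not tested.

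Genes of hepatocyte metabolism were lower at 24 hr across lists. In cytochrome P450, the haem enzymes that oxidise drugs and steroids, 33 of 37 were lower and 2 higher, with a median of -2.43, against -0.03 for 3 hr minus untreated. Cyp2c50 read 8.25, 8.57, 8.26, 8.26 and 8.06 at 3 hr and 3.1, 4.27, 4.12, 3.83 and 4.07 at 24 hr and fell 21.1-fold (log2 -4.40 ± 0.24, adjusted p = 2.95e-13). Cyp2c37 was 21.7-fold (adjusted p = 1.76e-13) lower and Cyp2c54 18.1-fold (adjusted p = 2.2e-13). These are close relatives, so a probe of 1 can take signal from another. Cyp4a12a (1.94-fold (adjusted p = 0.0229)) and Cyp2u1 (at least 1.52-fold (adjusted p = 0.008)) rose, both with overlapping arrays and both at low signal, above background on 4 and 0 of 5 arrays at 3 hr. With slide in the fit neither was called (adjusted p = 0.263 and 0.259), and with normexp background Cyp2u1 turned to -0.24. Leaving out 3 hr replicate 2 or 3 or 24 hr replicate 2 or 3 also ended the call of Cyp4a12a, with adjusted p of 0.0562, 0.0546, 0.0757 and 0.0945. Phase II enzymes, which conjugate drugs and steroids, had 29 lower and 4 higher of 37 (median -2.00). Besides Inmt, Ugt2b1 was 14.4-fold (adjusted p = 7.81e-14) lower and Sult2a1 12-fold (adjusted p = 8.02e-05). The change of Sult2a1 was -4.31 without 3 hr replicate 1 and -2.70 with slide in the fit. The estrogen sulfotransferase gene Sult1e1 rose 15.3-fold (log2 3.93 ± 0.58, adjusted p = 2.45e-06) and the glutathione transferase gene Gsta1 13.8-fold (adjusted p = 3.85e-08).

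Genes set by the pulses of growth hormone, many of them sex-biased, were lower in 24 of 26 and higher in 1 (median -2.27). A1bg was 32.6-fold (adjusted p = 0.000158) lower. It was above background on 3 of 5 arrays at 24 hr, and without 24 hr replicate 4 its change was -6.32. Secreted plasma proteins were lower in 28 of 28 (median -1.20), the largest falls being Igfals, the partner of circulating IGF-1 and also a member of the growth hormone list (10.3-fold (adjusted p = 3.89e-10)), the lectin Mbl2 (4.63-fold (adjusted p = 5.98e-11)) and Hrg (3.57-fold (adjusted p = 1.65e-11)). Alb read 10.73, 10.72, 10.68, 10.68 and 10.66 at 3 hr and 9.87, 9.88, 9.98, 9.92 and 10.27 at 24 hr and fell 1.64-fold (log2 -0.71 ± 0.09, adjusted p = 1.75e-07), a smaller change than the list median, and -0.07, adjusted p = 0.326 after quantile normalization.

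The urea cycle, which disposes of ammonia, and amino acid catabolism had 33 of 35 lower and 1 higher (median -2.14). Otc, ornithine transcarbamylase of the urea cycle, read 6.25, 6.51, 6.40, 6.22 and 6.48 at 3 hr and 2.85, 3.53, 3.58, 2.97 and 3.12 at 24 hr, with no overlap, and fell 8.95-fold (log2 -3.16 ± 0.15, adjusted p = 5.75e-14). Cps1, which feeds ammonia into the cycle, fell 3.3-fold (log2 -1.72 ± 0.15, adjusted p = 9.64e-10), Gnmt, which consumes methyl groups, 8.92-fold (adjusted p = 1.41e-14) and Prodh, of proline breakdown, 8.91-fold (adjusted p = 1.69e-13). Arg1, the last enzyme of the cycle, fell 1.4-fold (log2 -0.49 ± 0.14, adjusted p = 0.00313), its arrays overlapped, and it was not called after quantile normalization (adjusted p = 0.995), the authors' deposited matrix (0.807) or with slide in the fit (0.152). Sdsl rose 1.59-fold (adjusted p = 0.00139).

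Bile acid synthesis and transport genes were lower in 23 of 25 (median -1.52). Cyp8b1, which makes cholic acid, was 14.7-fold (adjusted p = 4.58e-10) lower and Akr1d1, of the same pathway, 14.1-fold (adjusted p = 8.35e-12). Cyp7a1, the rate-limiting enzyme, was above background on 3 of 5 arrays at each time. Its levels of -4.34, -5.50, -4.15, -3.01 and -1.15 at 3 hr and -5.35, -3.49, -3.35, -6.91 and -3.67 at 24 hr overlapped, and the change of -0.92 ± 0.71 did not pass (adjusted p = 0.259). Both times lay far below the untreated mean of 3.48.

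Fuel metabolism fell with few exceptions. Every one of the 28 genes of fatty acid oxidation and ketogenesis was called lower (median -1.44), Acaa1b 9.17-fold (adjusted p = 6.98e-12), Acot1 7.92-fold (adjusted p = 7.81e-08) and Acsl1, which activates fatty acids, 4.32-fold (adjusted p = 9.17e-11). Lipogenesis had 16 of 18 lower (median -1.70), with the elongase gene Elovl6 16.1-fold (adjusted p = 1.19e-11), Thrsp 11.2-fold (adjusted p = 4.07e-10) and the desaturase gene Scd1 7.15-fold (adjusted p = 1.39e-08) lower. All 39 measured respiratory chain subunits were lower (median -1.17), with Sdhb at 3.01-fold (adjusted p = 2.43e-10), Cyc1 at 2.93-fold (adjusted p = 3.9e-10) and Ndufa4 at 2.73-fold (adjusted p = 3.86e-11). Gluconeogenesis and glycogen genes had 15 lower and 6 higher of 23. The glucose transporter gene Slc2a2 was 7.44-fold (adjusted p = 4.63e-11) lower, the insulin receptor substrate Irs2 6.12-fold (adjusted p = 1.15e-11) and the glycogen phosphorylase Pygl 4.89-fold (adjusted p = 2.4e-13), while Irs1 rose 4.51-fold (adjusted p = 3.76e-09) and Ppp1r3g, of glycogen synthesis, 5.74-fold (adjusted p = 0.000178). With normexp background the change of Ppp1r3g was 0.77 on the log2 scale (adjusted p = 0.0214), so its size is uncertain. Together with G6pc, Irs1 and Ppp1r3g lay below untreated mice at 3 hr, with 3 hr minus untreated at -8.40, -4.33 and -3.89 on the log2 scale.

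Cholesterol synthesis did not move as a block: 5 of 25 genes were higher, 6 lower and the rest not called. Lss rose 3.16-fold (adjusted p = 1.28e-06) and Sqle 2.36-fold (adjusted p = 0.0022), while Tm7sf2 was 2.93-fold (adjusted p = 1.58e-07) lower and Ebp 2.58-fold (adjusted p = 2.67e-07). Lipid droplet genes were also split, 8 higher and 6 lower of 19 (42.1% and 31.6%, against 33.2% and 35.3% of all genes). Besides G0s2, Plin4, a coat protein of droplets, rose 4.77-fold (adjusted p = 1.68e-06) and Angptl8, which restrains lipoprotein lipase, 4.07-fold (adjusted p = 3.57e-08). The hepatic lipase gene Lipc was 5.29-fold (adjusted p = 7.72e-13) lower and Mgll, the monoglyceride lipase, 4.13-fold (adjusted p = 3.45e-08).

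Zonation genes mark hepatocytes near the central or the portal vein. Of 25, 17 were lower and 4 higher (median -1.15). The pericentral genes Cyp1a2 (16.5-fold (adjusted p = 6.33e-12)), Glul, which makes glutamine (13.4-fold (adjusted p = 1.74e-14)), and Rgn (18.7-fold (adjusted p = 3.59e-12)) were lower. Glul read 7.02, 7.25, 7.03, 6.92 and 6.67 at 3 hr and 2.86, 3.46, 3.63, 3.21 and 3.03 at 24 hr. Wnt targets Rnf43 (5.45-fold (adjusted p = 2.57e-09)) and Tbx3 (3.1-fold (adjusted p = 3.21e-06)), which at 3 hr lay below untreated mice, were higher. Among 26 hepatocyte transcription factors 17 fell and 4 rose (median -0.46). Hnf4a, the master regulator of hepatocyte identity, read 7.17, 7.32, 7.40, 7.13 and 6.92 at 3 hr and 6.67, 6.52, 6.94, 6.88 and 6.97 at 24 hr and fell 1.31-fold (log2 -0.39 ± 0.11, adjusted p = 0.00327), a small change with overlapping arrays that turned to 0.09 after quantile normalization and 0.06 with the authors' deposited matrix. Nr5a2 was 4.8-fold (adjusted p = 2.3e-12) lower and Cebpb, of the acute phase, 2.81-fold (adjusted p = 2.46e-08). Nr0b2, the repressor SHP, rose 8.53-fold (adjusted p = 1.12e-09) and Foxa2 2.01-fold (adjusted p = 7.36e-05).

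Iron and haem genes fell in 15 of 23 and rose in 2. Hamp, which encodes the iron hormone hepcidin, fell 2.2-fold (log2 -1.14 ± 0.15, adjusted p = 5.59e-07) and its relative Hamp2 17-fold (adjusted p = 6.59e-10). Alas1, the first enzyme of haem synthesis in liver, was 3.08-fold (adjusted p = 3.49e-05) lower and Tmprss6, which damps hepcidin, 3.41-fold (adjusted p = 2.84e-12). Hjv, a co-receptor upstream of hepcidin, rose 2.06-fold (adjusted p = 0.000354) and Lcn2, which binds siderophores, 1.4-fold (adjusted p = 0.0149), though not without 3 hr replicate 5 (adjusted p = 0.06).

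**Figure D3:**
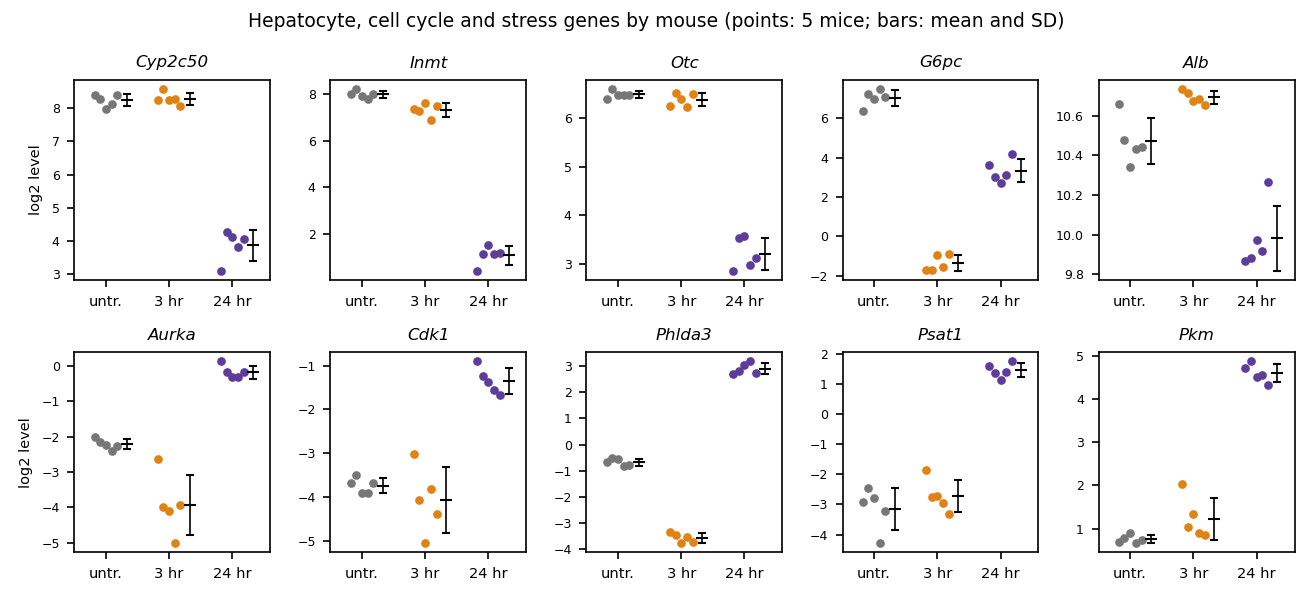
Log2 level (signal over the array's 75th percentile) of 10 genes in each of 5 untreated, 5 ConA with vehicle 3 hr and 5 ConA with vehicle 24 hr mice, with mean and SD beside the points. Cyp2c50, Inmt, Otc and Alb are lowest at 24 hr, G6pc is lowest at 3 hr, and Aurka, Cdk1, Phlda3, Psat1 and Pkm are highest at 24 hr.

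Cell division genes rose together. In mitosis 32 of 34 measured genes were higher at 24 hr and 0 lower, with a median of 1.89, against 0.00 for 3 hr minus untreated. In 8 of them no array was above background at 3 hr, so their fitted changes depend on signals near background. Aurka, the kinase of the spindle poles, read -2.62, -3.99, -4.09, -5.01 and -3.93 at 3 hr, where 4 of 5 arrays were above background, and 0.12, -0.19, -0.32, -0.33 and -0.18 at 24 hr. It rose 13.4-fold (log2 3.75 ± 0.25, adjusted p = 6.36e-12). Bub1b, of the spindle checkpoint, rose at least 3.75-fold (adjusted p = 8.02e-09), and Cdk1, the kinase that starts mitosis, chosen after its values were seen, 6.6-fold (log2 2.72 ± 0.25, adjusted p = 1.45e-09). The mean of its probes was lower, at 1.35. Mki67, which coats dividing chromosomes and gives the Ki-67 antigen, had already been 1.54 above untreated mice at 3 hr and rose 1.96-fold (log2 0.97 ± 0.19, adjusted p = 8.97e-05).

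DNA replication genes rose in 26 of 34 and fell in 2 (median 0.96). Uhrf1, which maintains DNA methylation, rose 11.2-fold (log2 3.48 ± 0.26, adjusted p = 4.29e-11), the origin licensing gene Cdt1 9.21-fold (adjusted p = 3.94e-14), and Cdc6, below background at 3 hr, at least 3.18-fold (adjusted p = 1.32e-10). Tk1, a thymidine kinase of nucleotide synthesis, was 3.17-fold (adjusted p = 5.5e-08) lower. G1 regulators were mixed, 10 higher and 9 lower of 22 (45.5% and 40.9%, against 33.2% and 35.3% of all genes). Ccnd1, cyclin D1 of the G1 to S transition, read 5.33, 4.69, 3.29, 3.21 and 2.30 at 3 hr and 2.85, 2.67, 2.54, 2.79 and 2.73 at 24 hr and was 2.07-fold (log2 -1.05 ± 0.42, adjusted p = 0.0292) lower. The groups overlapped, and within slide 3 its change was 0.10. The call was lost with slide in the fit (adjusted p = 0.313) and without 3 hr replicate 1 (0.126), 3 hr replicate 2 (0.0962) or 24 hr replicate 3 (0.0544). Ccnd3 rose 2.42-fold (adjusted p = 1.22e-09) and the inhibitor gene Cdkn2b 4.57-fold (adjusted p = 6.03e-07), while the stress inducible Gadd45g was 9.21-fold (adjusted p = 3.79e-12) lower, Gadd45b 5.42-fold (adjusted p = 9.72e-08) and Gadd45a 4.03-fold (adjusted p = 3.3e-06).

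Promoters of mitotic genes are shown because so many members rose together. The CCAAT box, bound by NF-Y, occurred on either strand in the 250 upstream bases of 23 of 31 matched promoters of the mitosis list (74.2%), against 35.9% of all promoters. The cell cycle homology region (CHR), searched as TTTGAA, occurred in 11 of 31 (35.5%), against 11.7%. Neither motif was particular to genes that rose. Over all genes the CCAAT box was in 36.9% of promoters called higher and 36.3% called lower, and CHR in 10.9% and 11.4%. CHR was in 37.9% of promoters of the phase II list, which mostly fell, and the CCAAT box in 88.2% of the cholesterol synthesis list. The windows below, with both motifs in capitals, were picked after values were seen and lie directly upstream of the start site. Of these genes Ube2c changed by 1.29 ± 0.18 (adjusted p = 1.01e-06), Top2a by 2.75 ± 0.36 (adjusted p = 3.94e-07), Cdc20 by 2.37 ± 0.25 (adjusted p = 1.74e-08), and Kif11, below background at 3 hr, rose at least 1.84-fold (adjusted p = 8.45e-07), but was not called with normexp background (0.09, adjusted p = 0.382).
Cdk1 (chr10:69352913-69353011, minus strand): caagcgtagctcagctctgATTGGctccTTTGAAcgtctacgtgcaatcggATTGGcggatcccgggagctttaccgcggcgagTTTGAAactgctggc
Ube2c (chr2:164769830-164769928, plus strand): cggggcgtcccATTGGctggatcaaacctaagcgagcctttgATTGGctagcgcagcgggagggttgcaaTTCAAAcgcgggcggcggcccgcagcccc
Top2a (chr11:99024190-99024288, minus strand): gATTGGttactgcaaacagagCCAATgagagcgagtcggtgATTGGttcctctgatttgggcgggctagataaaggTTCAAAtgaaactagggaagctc
Cdc20 (chr4:118437344-118437403, minus strand): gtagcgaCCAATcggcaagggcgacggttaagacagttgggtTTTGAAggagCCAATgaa
Kif11 (chr19:37376322-37376381, plus strand): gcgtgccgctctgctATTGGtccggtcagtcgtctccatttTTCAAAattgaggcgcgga

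p53 targets, transcribed after DNA damage, had 14 higher and 8 lower of 25 (median 0.57). Besides Phlda3, the polymerase gene Polk rose 5.95-fold (adjusted p = 2.29e-10) and Bbc3, the death factor PUMA, 4.44-fold (adjusted p = 1.74e-08). Polk was above background on 4 of 5 arrays at 3 hr. Cdkn1a, the cell cycle inhibitor p21, read 4.15, 2.82, 3.04, 2.19 and 1.64 at 3 hr and 3.42, 3.33, 3.35, 3.30 and 3.30 at 24 hr, and its change of 0.57 ± 0.32 did not pass (adjusted p = 0.113). The kinase gene Plk3 was 6.39-fold (adjusted p = 1.13e-13) lower, Btg2 5.1-fold (adjusted p = 6.45e-08) and the death receptor Fas 4.75-fold (adjusted p = 8.54e-13). Of 26 cell death genes 9 were higher and 8 lower (34.6% and 30.8%), shares near those of all genes (33.2% and 35.3%). Ripk3, of necroptosis, rose 4.1-fold (adjusted p = 6.39e-08), the pore former Bax 3.49-fold (adjusted p = 2.77e-12) and Casp9 2.02-fold (adjusted p = 5.99e-07). Birc2 was 5.52-fold (adjusted p = 3.57e-13) lower and Ripk1 3.62-fold (adjusted p = 3.78e-13).

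The unfolded protein and integrated stress responses had 16 higher and 6 lower of 28 (median 0.67). Psat1, of serine synthesis and a target of Atf4, read -1.86, -2.75, -2.74, -2.96 and -3.32 at 3 hr and 1.60, 1.37, 1.13, 1.40 and 1.74 at 24 hr and rose 18.1-fold (log2 4.18 ± 0.27, adjusted p = 5.66e-12). The hormone gene Fgf21, below background at 3 hr and lower there than in untreated mice, rose at least 7.35-fold (adjusted p = 1.58e-12), and asparagine synthetase (Asns) 7.43-fold (adjusted p = 1.33e-08). Atf3, Xbp1 and Ppp1r15a were 3.7-fold (adjusted p = 6.46e-05), 3.14-fold (adjusted p = 1.25e-11) and 2.49-fold (adjusted p = 4.14e-05) lower. Hypoxia and glycolysis genes had 14 higher and 8 lower of 29 (median 0.44). Pkm, whose product is the pyruvate kinase of glycolysis outside the adult hepatocyte, rose 10.4-fold (log2 3.38 ± 0.22, adjusted p = 6.65e-12) and the prolyl hydroxylase gene P4ha2 8.41-fold (adjusted p = 5.31e-12). Pfkfb3 was 8.95-fold (adjusted p = 2.63e-10) lower, Adm 2.32-fold (adjusted p = 0.0133) and Vegfa 2.25-fold (adjusted p = 2.47e-06). Adm was not called with slide in the fit (adjusted p = 0.198).

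Chaperones and antioxidant genes went both ways. In heat shock 9 rose and 7 fell of 21 (42.9% and 33.3%, against 33.2% and 35.3% of all genes). Cryab was 3.76-fold (adjusted p = 1.65e-14), Hspb1 3.39-fold (adjusted p = 2.94e-06) and Dnajb1 2.6-fold (adjusted p = 3.51e-08) higher. Bag3 was 2.55-fold (adjusted p = 4.14e-09) lower. In oxidative stress and NRF2 8 rose and 14 fell of 26. The NRF2 targets Akr1b8 (4.77-fold (adjusted p = 8.23e-09)) and Srxn1 (4.27-fold (adjusted p = 2.23e-11)) rose, while catalase (Cat) was 4.89-fold (adjusted p = 3.47e-13) lower, Gpx1 4.67-fold (adjusted p = 4.03e-12) and Me1 2.86-fold (adjusted p = 2.11e-05).

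Housekeeping lists were also read, but they cannot settle the scale, since medians among them changed sign with the scaling. Of 45 ribosomal protein genes 3 rose and 5 fell, well under the 68.4% called over all genes, with changes between -0.42 and 0.32 (median -0.06). The constitutive proteasome had 24 lower and 1 higher of 32, but its median of -0.39 was 0.10 after quantile normalization and 0.06 with the authors' deposited matrix. Ribosome biogenesis had 10 higher and 9 lower of 29 (34.5% and 31.0%), shares near those of all genes (33.2% and 35.3%). Nop56 was 1.62-fold (adjusted p = 3.99e-05) higher and Nop58 3.4-fold (adjusted p = 5.67e-11) lower. Across scalings the medians of cholesterol synthesis, heat shock, oxidative stress, ribosomal protein, cell death, dendritic cell and G1 lists also changed sign, so no direction is given for these lists as a whole.

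Clock genes were read at unknown hours of the day, and the median change of 0.28 turned to -0.05 when only probes above background on all 25 arrays were kept. Of 24 genes 10 were higher and 4 lower at 24 hr. Arntl, the activator BMAL1, rose 2.33-fold (log2 1.22 ± 0.25, adjusted p = 0.000128), and Cry1, a repressor, 2.53-fold (adjusted p = 1.43e-05). Per2, above background on 1 of 5 arrays at 3 hr, rose 14.1-fold (adjusted p = 8.29e-09), a size that rests on signals near background, since with normexp background the change was 1.17 on the log2 scale. Dbp, an output gene, rose 3.03-fold (adjusted p = 0.0118) with its brighter probe, while the mean of its probes was smaller and not called (0.79, adjusted p = 0.176). Its call was also lost with slide as a fixed term (adjusted p = 0.0525) and with only the groups compared (adjusted p = 0.0618). Without 3 hr replicate 1 Dbp was at 1.02, adjusted p = 0.0515, and without 3 hr replicate 5 at 2.26, adjusted p = 3.84e-05. Per1 read 2.50, 2.59, 3.15, 2.51 and 2.75 at 3 hr and 3.03, 2.18, 2.66, 2.91 and 3.17 at 24 hr, and its change of 0.09 ± 0.29 did not pass (adjusted p = 0.796). Nr1d1, the repressor REV-ERB alpha, changed by 0.29 ± 0.53 (adjusted p = 0.649). Bhlhe40 was 4.06-fold (adjusted p = 2.85e-07) lower and Noct, a deadenylase, 2.71-fold (adjusted p = 0.000337). The E-box CACGTG, to which BMAL1 binds with CLOCK, was present in 5 of 18 matched clock promoters (27.8%), against 7.83% of all. A clear pair is shown with the E-box in capitals.
Cry1 (chr10:85185055-85185124, minus strand): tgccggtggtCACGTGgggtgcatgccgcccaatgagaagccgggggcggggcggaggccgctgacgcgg
Ciart (chr3:95882229-95882308, minus strand): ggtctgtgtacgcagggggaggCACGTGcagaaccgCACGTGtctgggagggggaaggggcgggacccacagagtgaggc

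**Figure D4:**
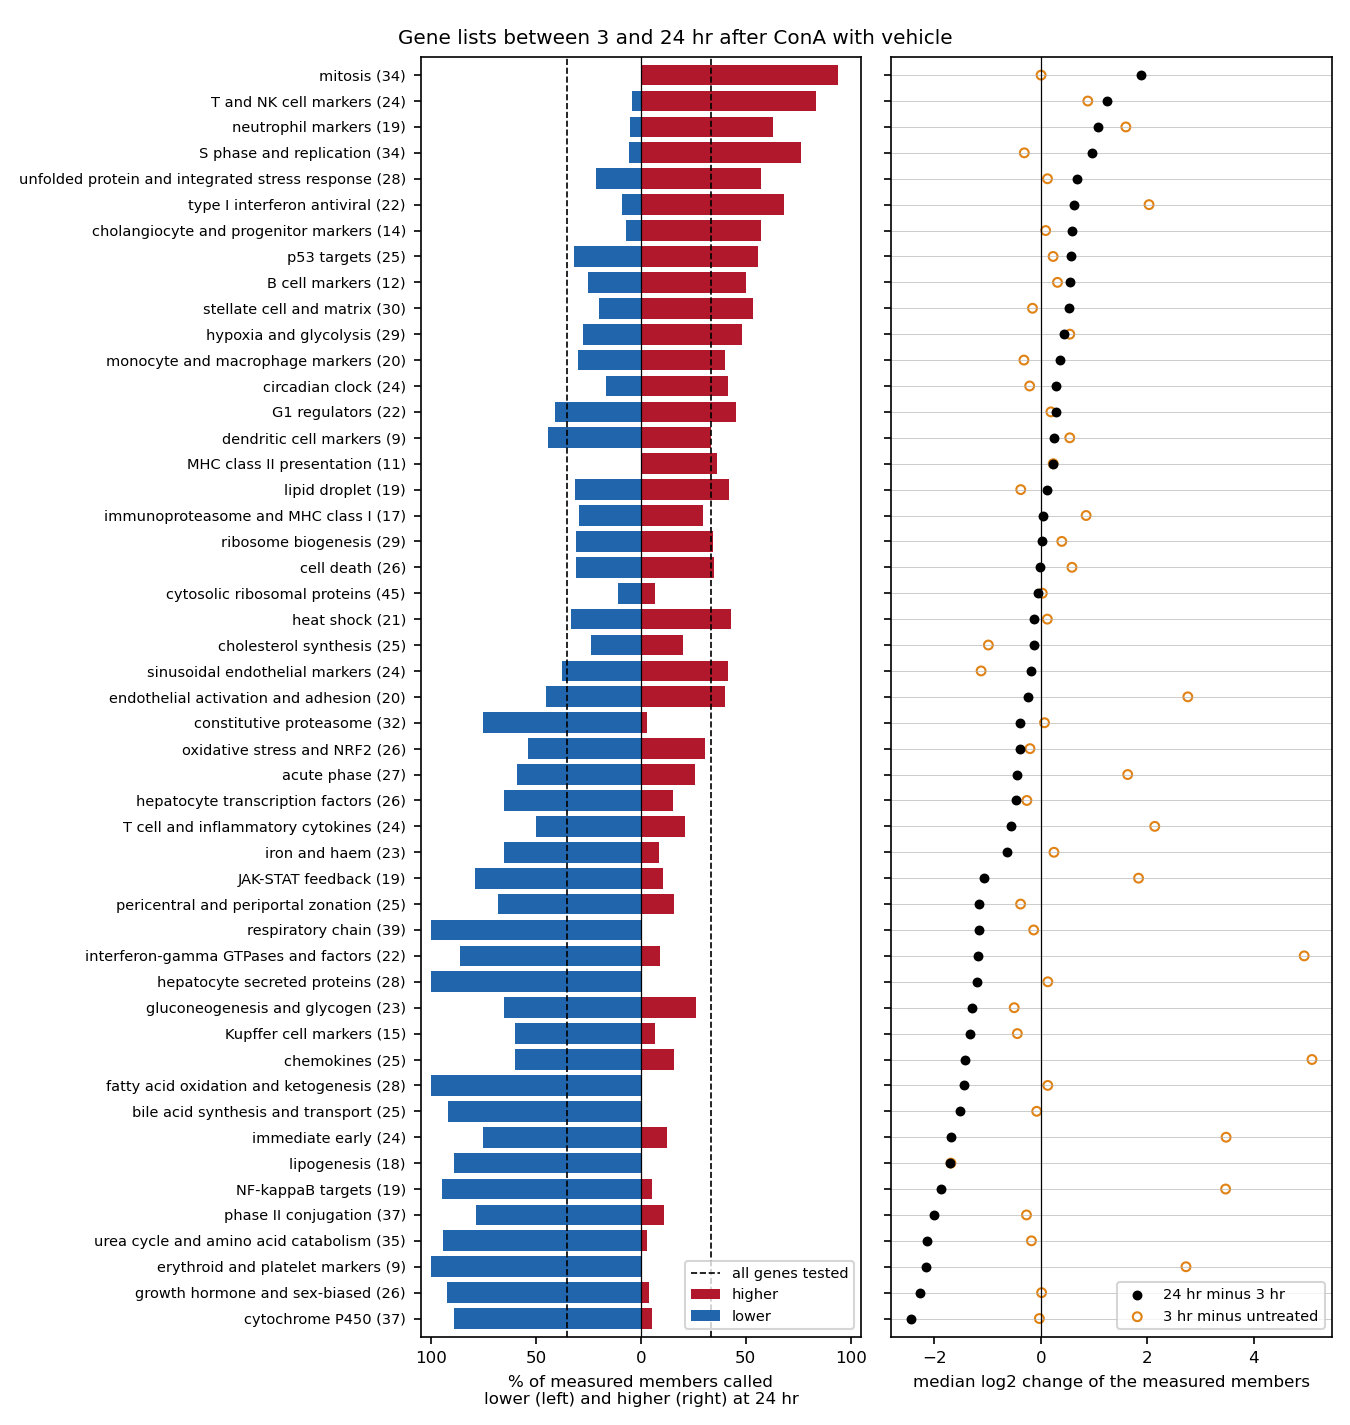
Left, share of the measured members of each list (number in brackets) called higher (red) or lower (blue) at 24 hr, with dashed lines at the shares over all genes tested (33.2% and 35.3%). Right, the median log2 change of the list between 3 and 24 hr (filled) and between untreated and 3 hr (open), which share the 3 hr arrays. Mitosis and T and natural killer cell markers stand at the top, and P450 and growth hormone lists at the bottom.

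Mice given BW245C after ConA allowed a test of whether the time change differed by treatment. The difference between the time changes was called in 4538 genes (30.0%), but in 928 with slide as a fixed term and in 2107 with it as a random term. All 5 arrays of ConA with BW245C at 3 hr lay on slide 3, so this comparison rests on the slides more than the time change itself. Genes named here whose difference was called with and without the block took in bile acid, glycogen and chemokine genes. Ppp1r3g changed by 2.52 between the times with vehicle and by -1.87 with BW245C, a difference of -4.39 (adjusted p = 0.000359), or -4.59 with slide in the fit. Cyp7a1, which did not pass with vehicle, changed by -0.92 with vehicle and by 3.02 with BW245C, a difference of 3.95 (adjusted p = 0.00692) and 5.59 with the block. Cyp8b1 fell less with BW245C, by -0.57 against -3.88, a difference of 3.31 (adjusted p = 8.84e-05).

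Of the cytokine and chemokine genes named here, those whose difference was called with and without slide in the fit all fell further with BW245C. Cxcl1 changed by -4.33 with BW245C and -2.48 with vehicle, a difference of -1.85 (adjusted p = 0.000642), or -1.54 with slide in the fit. For Cxcl10 the difference was -1.41 (adjusted p = 0.011), for Ifng -1.14 (adjusted p = 0.0185) and for Il2 -1.60 (adjusted p = 0.0112). Il1b also fell further with BW245C, by -1.55 (adjusted p = 0.0155), but not past the threshold with slide in the fit (adjusted p = 0.0982). Cxcl9 and Ccl11 fell less with BW245C, with differences of 0.92 (adjusted p = 0.0187) and 0.98 (adjusted p = 0.0483), neither of which passed with slide in the fit (adjusted p = 0.377 and 0.285). Tnf changed by -2.02 with BW245C and -1.60 with vehicle, a difference of -0.42 whose adjusted p was 0.57. For the mitotic gene Aurka the difference was -0.51 (adjusted p = 0.274) and for the P450 gene Cyp2c50 1.85 (adjusted p = 0.000673), or -1.04 (adjusted p = 0.152) and 1.36 (adjusted p = 0.0594) with the block.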

How the data were processed

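Liver RNA of 25 mice was hybridised to 25 single-colour Agilent arrays. Per the file headers, the deposited intensity values are Cy3 signals that Feature Extraction corrected for background and spatial trend without scaling arrays to each other; its version is 10.7.3.1 in the headers and 9.1 in the submitters' processing notes. The authors also deposited a matrix of these intensity values, each array multiplied by its own factor; no source used here states how the factor was set.

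Here log2 signal minus its array's 75th percentile was taken, outlier spots were left out and spots of a probe averaged. Probes had to be well above background on 5 or more of 25 arrays, and each gene, named by RefSeq accession, took its brightest probe: 15104 genes from 19625 probes. Of 55681 probes 29099 had no symbol and entered no gene result. No spot was saturated. A limma 3.58.1 fit (R 4.3.3) of 1 mean per group used all 25 arrays, with Benjamini-Hochberg adjustment over genes. Labels do not say that mice were handled separately beyond 1 mouse per array, so p-values measure the spread between these samples.

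The members and the gene lists were chosen with earlier results of these data known. Genes named are the 15 higher and 15 lower with the largest change among called genes without overlap, up to 3 called each way per list, and a set of always named genes; the others are said to be chosen after their values were seen. Some items that the rule names are not reported here. The main steps were tested on simulated data. Tried beside them were normexp background (offset 50, on the median signal), quantile and median scaling, other filters, the slide or replicate number as a block, only the groups compared, array weights, an intensity trend, the authors' matrix, the mean of a gene's probes, dropping each mouse in turn, a threshold of 0.01 and a 2-fold minimum. Tables and figures used the package data.table (version 1.17.8), matplotlib 3.10.9, numpy 2.4.6 and pandas 2.3.3.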

Additional observations from a re-analysis of the deposited data

Results flagged for a closer look

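A gap was counted where the highest or lowest mouse stood apart by more than Dixon's 95% limit allows, which chance meets in about 1 in 20 independent groups. In all, 27 of 520 groups of the 260 genes named had a gap. These genes share the same arrays, and part of them were chosen for lack of overlap between the times. The count can therefore not be set against that rate. The gaps were not spread evenly, as 13 of the 16 at 3 hr were replicate 1 lying high. The values are a description of single mice. Each gene below is followed by the log2 level of that mouse and of the mouse nearest to it. Replicate 1 at 3 hr was high for Arntl (1.40, nearest -0.18), Ccl6 (2.95, nearest 2.03), Ccnf (-2.91, nearest -3.99), Cdc20 (-1.35, nearest -2.72), F3 (4.76, nearest 4.05), Fcer2a (-1.56, nearest -2.00), Fosl1 (-2.51, nearest -3.61), Gtse1 (-5.38, nearest -6.31), Gzmb (1.64, nearest 0.74), Mki67 (0.76, nearest 0.15), Oas3 (-1.76, nearest -2.63), Rsad2 (4.10, nearest 2.69) and Tnf (1.32, nearest 0.49). The part of any technical difference in these values was not tested. Replicate 4 at 3 hr was high for Apln (-4.84, nearest -6.34). Replicate 5 at 3 hr was high for Egr2 (2.94, nearest 2.72) and Gml (-5.08, nearest -6.20). Replicate 1 at 24 hr was low for Irs1 (0.00794, nearest 0.46) and Mbl2 (6.30, nearest 6.91). Replicate 3 at 24 hr was low for Lox (-3.17, nearest -2.94). Replicate 4 at 24 hr was high for A1bg (1.84, nearest -3.59), Cd163 (-4.84, nearest -6.38), Col1a1 (1.97, nearest 1.43), Hao2 (-2.28, nearest -5.28), Il33 (1.18, nearest 0.19) and Thrsp (3.09, nearest 2.65). Replicate 5 at 24 hr was high for Alb (10.27, nearest 9.98) and low for Tap1 (2.25, nearest 2.71).

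The change from 3 to 24 hr differed between BW245C and vehicle mice, in the interaction test with and without slide in the fit, for 31 of the 260 genes named. The value after each gene is the log2 change with BW245C minus that with vehicle. It was above 0 for Cyp7a1 (3.95), Cyp8b1 (3.31), Hao2 (3.21), Rgn (2.35), Rnf43 (2.25), Dbp (2.11), Akr1d1 (2.07), Slco1a4 (1.99), Cyp2c37 (1.92), Bhlhe40 (1.91), Cyp2c54 (1.84), Jak3 (1.23), Prodh (1.19), Slc2a2 (1.11) and Nr5a2 (1.09). It was below 0 for Ppp1r3g (-4.39), Cxcl1 (-1.85), Cdkn1a (-1.65), Il2 (-1.60), Plin4 (-1.54), Slc16a3 (-1.44), Arntl (-1.44), Cxcl10 (-1.41), Mmp3 (-1.40), P4ha2 (-1.17), Ifng (-1.14), Sdsl (-0.97), Phlda3 (-0.83), Cryab (-0.77), Srxn1 (-0.63) and Ccnd3 (-0.44). Slide and treatment are entangled at 3 hr, and the slide's part in what remains was not tested.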

How the results depend on the processing

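Of the 260 genes named, 230 kept their direction and their side of the threshold under every alternative run. The count of called genes stayed between 8779 and 11714 over the other scalings, filters, probe rules and fits, but was 4415 with a 2-fold minimum (2389 higher and 2026 lower). With the authors' deposited matrix, whose scaling rule is unknown, 8346 were higher and 2922 lower. With slide as a fixed term 9674 genes were called, 8587 of them among the main calls in the same direction. Leaving out each mouse gave 9944 to 10241 calls, 4830 to 4977 higher and 5082 to 5343 lower. The interaction was called in 928 genes with slide as a fixed term, 2107 with it as a random term, 1892 at a threshold of 0.01 and 1171 with a 2-fold minimum, and in 3254 to 5357 without each mouse. Probes without a gene symbol, added after seeing the data, were called in 3131 cases as higher and 3426 as lower of 13879. Changes that turned sign were those of Csf3r (0.24 with quantile normalization and 0.21 with the authors' matrix), Hnf4a (0.0857 and 0.0592), Saa1 (0.27 and 0.000719) and Stab2 (0.26 and 0.33, 0.21 and 0.014 with slide as a fixed and random term). With normexp background Cyp2u1 (-0.24) and Il10 (-0.0855) turned, and with array weights Nr1d1 (-0.0402) and Per1 (-0.0807). Without each mouse in turn the change of Stab2 ranged from -0.23 to 0.0317 and that of Per1 from -0.00313 to 0.24. Where no value above shows it, the cause was not tested. List medians moved by more than the spread between mice in 130 of 1127 comparisons.

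The labels number the mice of every group from 1 to 5. The deviations of same-numbered mice at 3 and 24 hr correlated at 0.115, -0.224, 0.0509, -0.0858 and 0.00312 over genes, so the numbers do not pair the mice. With a replicate block 10251 genes were called, 4966 higher and 5285 lower. Each time a single mouse matched best with its own number (1 of 5 at 3 hr and 1 of 5 at 24 hr). Signals near background limit the precision of folds. Those of genes above background on no array of 1 time are given as bounds, which hold on the scale used here only. With normexp background all of these folds but that of Cd163 fell below their bounds. Those of genes above background on some arrays are uncertain in size.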
